A study of Homo sapiens with 52 samples.

Results

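The genes described here are 8 transcription factors of the epithelial-to-mesenchymal transition (EMT), namely ZEB1, ZEB2, SNAI1, SNAI2, TWIST1, TWIST2, FOXC2 and PRRX1. They were found by their gene names among the 78894 genes of the gene-level values, and each name matched 1 gene. Their levels were measured by bulk sequencing of polyadenylated RNA in 52 samples from 3 established human breast cancer cell lines. These were SUM159PT (17 samples), MDA-MB-231 (18) and HS578T (17). The study describes them as claudin-low, a molecular subgroup with low levels of cell-cell adhesion proteins that includes part of triple-negative breast cancers. Each line had 6 groups. In 3 of them, siRNA at 20 nM was transfected and RNA was taken 72 h later: a non-targeting control (siNT) and 2 siRNAs against neuropilin-1 (siNRP1#3 and siNRP1#5). In the other 3, cells were transduced with lentiviral shRNA, selected with puromycin and harvested 48 h after seeding: a non-targeting control (shNT), shNRP1#3 and shNRP1#5. NRP1 is a co-receptor for semaphorins and several growth factors. The #3 sequences were designed against the transmembrane NRP1 transcripts and the #5 sequences against both the transmembrane and the soluble ones, and siNRP1#5 and shNRP1#5 share 1 sequence. Groups held 3 samples, except SUM159PT siNRP1#5 and HS578T shNRP1#3 with 2. The shRNA replicates were successive passages of transduced cells, so a p-value given here measures the spread between such samples, which may be partly technical. In bulk RNA, fewer cells expressing a gene and less RNA per cell cannot be told apart.

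The EMT transcription factors switch epithelial cells to a migratory, mesenchymal state. ZEB1 and ZEB2 are zinc finger and homeodomain proteins, and SNAI1 and SNAI2 are zinc finger proteins. These factors bind E-box elements and repress junction genes such as CDH1 (E-cadherin). TWIST1 and TWIST2 are basic helix-loop-helix proteins, FOXC2 is a forkhead protein and PRRX1 is a paired-type homeobox protein, and all of them are linked to mesenchymal programmes in development and in tumour cells. Claudin-low tumours are known for high levels of several of these factors and low levels of the miR-200 family, which represses ZEB1 and ZEB2 through sites in their 3′ untranslated regions (UTRs).

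The miR-200 family is shown first, since it is the best known direct regulator of 2 of the 8 genes. The mature sequences are those of RefSeq on GRCh38.p14, and capitals mark the seed, bases 2 to 8, which pairs with the target. The first 3 sequences share one seed, the next 2 share another that differs at 1 base, and miR-205-5p has its own.
miR-200b-3p: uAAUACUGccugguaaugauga
miR-200c-3p: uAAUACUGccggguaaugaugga
miR-429: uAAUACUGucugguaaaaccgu
miR-200a-3p: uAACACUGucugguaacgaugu
miR-141-3p: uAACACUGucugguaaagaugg
miR-205-5p: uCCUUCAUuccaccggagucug

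The letters that pair with these seeds were searched on the sense strand of the 3′ UTR of 1 transcript per gene. They are CAGTATT for the first seed, then CAGTGTT for miR-200a-3p and miR-141-3p, and ATGAAGG for miR-205-5p, and the motifs do not overlap each other in the windows printed here. The 3′ UTR of ZEB1 (2540 bases) held CAGTATT 6 times, a count reached by 0.0102% of 19550 3′ UTRs, of which 16.1% held it at all. It also held CAGTGTT 3 times (reached by 1% of 3′ UTRs, with 18.2% holding it at all) and ATGAAGG once (11.6%). The 3′ UTR of ZEB2 (5370 bases) held CAGTATT 5 times and CAGTGTT 4 times, counts reached by 0.0409% and 0.297% of 3′ UTRs, and ATGAAGG 0 times. Longer 3′ UTRs hold more matches, and among those at least as long, 0.0437% reached the CAGTATT count of ZEB1 and 0.624% that of ZEB2. The CAGTGTT counts were reached by 4.13% and 4.19% of such 3′ UTRs, and the ATGAAGG match of ZEB1 by 30.3%. None of these letters were found in the 3′ UTRs of SNAI1, TWIST1, TWIST2, FOXC2 and PRRX1, and that of SNAI2 was not searched. A pair of neighbouring CAGTATT matches in each gene and the ATGAAGG match of ZEB1 are printed with the match in capitals, on GRCh38, to show the sites by which the 2 genes are known to be regulated. A match is a description and not a measured site.
ZEB1, chr10:31528493-31528514, plus strand: tgatttttacctatCAGTATTa
ZEB1, chr10:31528563-31528584, plus strand: gtcttcaaacctggCAGTATTa
ZEB1, chr10:31528068-31528089, plus strand: atatgtggtaacatATGAAGGa
ZEB2, chr2:144389052-144389073, minus strand: gcactaccatacatCAGTATTt
ZEB2, chr2:144388989-144389010, minus strand: gcactacaatgcatCAGTATTa

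Mature miRNAs are not measured by sequencing of polyadenylated RNA, so host transcripts were looked at for some of them. No host was looked at for miR-200b, miR-200a and miR-429, which lie close together on chromosome 1. MIR200CHG, the host of miR-200c and miR-141, was at 0 counts in 15 of 17 SUM159PT samples, 16 of 18 MDA-MB-231 samples and 17 of 17 HS578T samples, and reached at most 2 counts. MIR205HG, the host of miR-205, was at 0 counts in every MDA-MB-231 and HS578T sample, while SUM159PT samples held between 2 and 459 counts, with the highest level (9.75 CPM, a count scaled to library size) in shNRP1#5. A count of 0 does not show that a host transcript is absent.

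Before the results, the libraries and labels were checked. Expected counts, the read counts per gene that the quantification software RSEM estimates, added up to between 25310443 and 72003442 per sample. NRP1 was called lower in 11 of 12 knockdown comparisons, with log2 fold changes from −0.70 (MDA-MB-231 siNRP1#3) to −4.88 (MDA-MB-231 siNRP1#5). The exception was HS578T shNRP1#3, at −1.59 (adjusted p = 0.069). Marker genes were looked at in TPM (a level scaled by transcript length and library size). The mesenchymal marker VIM was high in every line. ITGA6, which the study also names as a gene of this subtype, varied between lines. Its median was 97.1 TPM in MDA-MB-231 and 39.7 in SUM159PT, but 8.82 in HS578T, with a lowest sample of 2.22. In addition, 8 genes that the labelled subtype should have at a low level were examined. CLDN3, CDH1, ESR1 and PGR were below 1 TPM in every SUM159PT and HS578T sample, and the medians of CLDN4, CLDN7 and EPCAM were at most 1.02 TPM there. Single samples reached 27.9 TPM of CLDN4 in SUM159PT, and 25.6 of CLDN4, 7.43 of CLDN7 and 4.45 of EPCAM in HS578T. ERBB2 was at 8.46 TPM or more in every sample of each line. In MDA-MB-231, ESR1 and PGR were below 1 TPM in 18 of 18 samples and CDH1 in 15 of 18 (median 0.405 TPM), but the epithelial genes CLDN4 (median 149 TPM), CLDN7 (35.4), EPCAM (22.7) and CLDN3 (6.86) were well above 0, which goes against the claudin-low label there. Some libraries also held raised levels of genes that mark another of the lines. Such marker genes had a mean of 20 CPM or more in the control samples of one line and at most 0.5 in each control of the other. The 8 factors were left out of the markers. Whether transcripts of another line or a change of the marker genes with the reagent raised these levels was not tested. The 3 HS578T siNRP1#5 samples stood apart: the 9 MDA-MB-231 marker genes were at 21.1%, 20.3% and 13.4% of their MDA-MB-231 level, against 0.129% to 1.32% in HS578T controls, and the 40 SUM159PT marker genes were at 1.39%, 6.77% and 1.05%. The HS578T siNRP1#3 samples were also above the controls, at 1.56%, 2.80% and 5.51% of MDA-MB-231 marker levels. After an estimated contribution of the other lines was subtracted, NRP1 itself was at −1.27 in HS578T siNRP1#3 (adjusted p = 0.509, where it had been −1.20). It remained called with siNRP1#5. In HS578T shNRP1#5 the NRP1 call was lost as well, at −2.08 where it had been −2.09. Those shNRP1#5 samples held 0.0826% to 0.222% of MDA-MB-231 marker levels, no more than the controls. In HS578T, a call can therefore be lost after subtraction while its value hardly changes. In MDA-MB-231, replicate 3 of shNRP1#3 held 1.89% of HS578T and 2.33% of SUM159PT marker levels, against at most 0.368% and 0.188% in the controls. Calls that rest on these libraries are therefore given beside their value after an estimated contribution of the other lines was subtracted, or without the library. SUM159PT knockdown samples held up to 1.04% of MDA-MB-231 marker levels, against at most 0.195% in the controls. Values of list genes in SUM159PT are given without subtraction.

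In control cells the 8 factors had a different order in each line. Levels between genes are compared in TPM over the 6 control samples of a line (siNT and shNT). HS578T had high PRRX1 (60.4 ± 16.1 TPM, SD, n = 6), SNAI2 (49.7 ± 7.74) and TWIST2 (42.0 ± 5.46), whose sample ranges overlapped. TWIST1 (15.0 ± 5.48) and FOXC2 (14.8 ± 6.37) followed, with every sample below the lowest TWIST2 sample. ZEB1 (6.47 ± 3.94), ZEB2 (3.77 ± 1.82) and SNAI1 (2.93 ± 1.73) were lowest there and overlapped with each other, and ZEB1 also overlapped with TWIST1 and FOXC2.

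In SUM159PT the highest factors were TWIST2 (34.1 ± 12.5 TPM, SD, n = 6) and SNAI1 (23.8 ± 3.95), and their ranges overlapped. No control sample of the other 6 factors reached the lowest value of either, 19.0 TPM. TWIST1 (9.26 ± 1.62), SNAI2 (6.41 ± 2.25), PRRX1 (6.40 ± 6.21), ZEB2 (5.92 ± 1.43), ZEB1 (4.49 ± 2.15) and FOXC2 (4.16 ± 0.968) formed a second tier in which neighbours overlapped. The SD of PRRX1 nearly equalled its mean, because siNT and shNT samples differed.

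MDA-MB-231 held a narrower set of these factors. ZEB1 was at 12.4 ± 4.57 TPM (SD, n = 6), SNAI2 at 7.90 ± 2.27 and SNAI1 at 6.97 ± 1.28, with overlapping ranges. ZEB2 was at 3.22 ± 0.681, with every sample below those 3. PRRX1 was at 0.807 ± 0.282 TPM. TWIST2, FOXC2 and TWIST1 were between 0 and 0.490 TPM in all 6 samples, and their highest control values (0.490, 0.110 and 0.130 TPM) were all in siNT replicate 3, the control with the highest HS578T marker share (0.368%). The part of that share in these values was not tested.

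**Figure D1:**
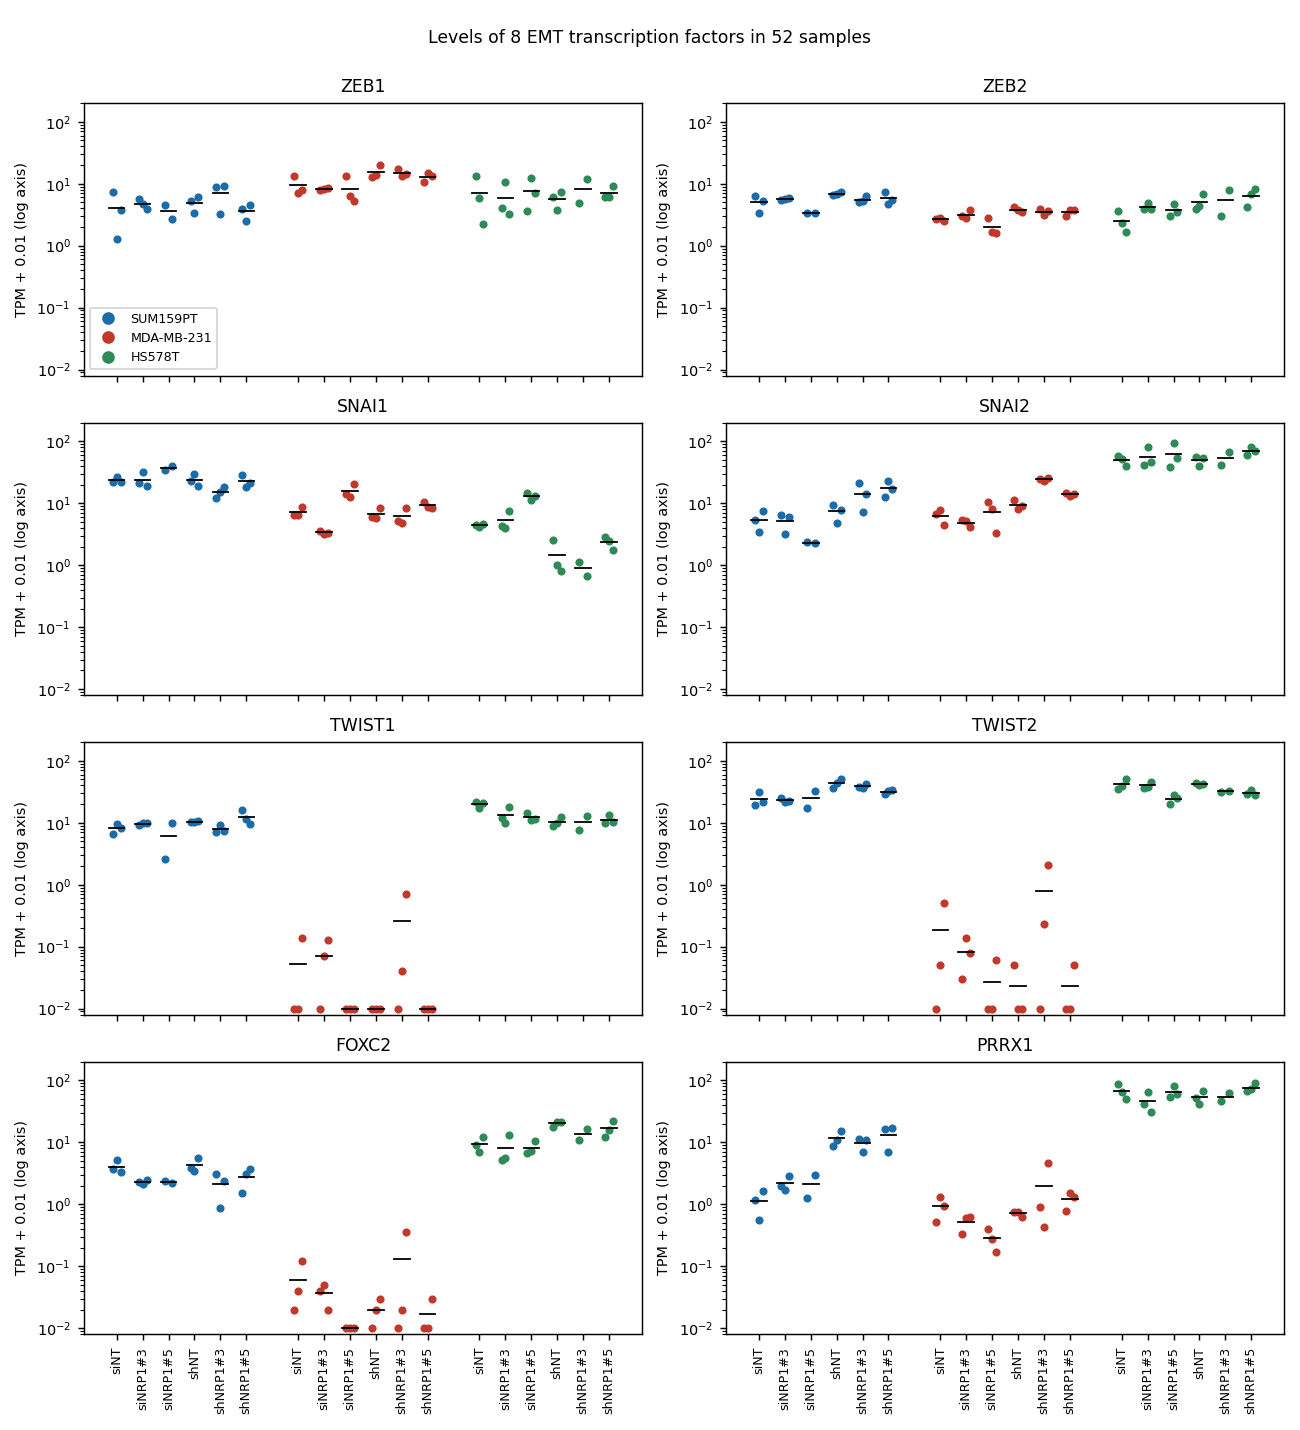
TPM + 0.01 on a log axis for each of the 8 factors in all 52 samples, where each point is 1 sample, short bars are group means, and colours are cell lines (SUM159PT blue, MDA-MB-231 red, HS578T green) with 6 treatment groups each. TWIST1, TWIST2 and FOXC2 sit near the bottom of the axis in MDA-MB-231 apart from single samples, PRRX1 rises from siRNA to shRNA groups in SUM159PT, and SNAI2 and PRRX1 are highest in HS578T.

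The lines were compared per gene with edgeR's quasi-likelihood test on the counts, with p-values adjusted by the Benjamini-Hochberg method over all genes tested and a threshold of 0.05. Of 24 comparisons between control samples of 2 lines, 20 passed (83.3%). Over all genes the share was 64.4%: 59.4% for SUM159PT against MDA-MB-231, where 7 of 8 factors passed, 70.2% for HS578T against MDA-MB-231, also 7 of 8, and 63.5% for HS578T against SUM159PT, 6 of 8. Most genes therefore differed between these lines, and the factors are to be read against that.

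The largest of these differences concerned TWIST1, TWIST2 and FOXC2, which passed in both comparisons against MDA-MB-231 (adjusted p from 7.78e-19 to 4.24e-15). These genes passed the filter on low counts through SUM159PT and HS578T and not through MDA-MB-231. Their p-values and their part in the share of factors that passed are to be read with that. A fold is not given for these genes, because MDA-MB-231 controls held 0 to 20 counts per sample. PRRX1 was higher in HS578T than in SUM159PT by a log2 fold change of 4.18 ± 0.327 (SE, adjusted p = 3.99e-14). SNAI2 was 10.4-fold higher in HS578T than in SUM159PT and 10.9-fold higher than in MDA-MB-231, at log2 fold changes of 3.37 and 3.45. SNAI1 had the opposite order, 7.02-fold lower in HS578T than in SUM159PT (log2 fold change −2.81 ± 0.255, SE, adjusted p = 1.27e-12) and 4.44-fold higher in SUM159PT than in MDA-MB-231.

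The ZEB factors differed less between lines, and their order depended on the unit. On counts, ZEB1 was 2.03-fold lower in SUM159PT than in MDA-MB-231 (adjusted p = 0.00554) and did not pass between HS578T and MDA-MB-231 (log2 fold change −0.14, adjusted p = 0.722). On log2(TPM + 0.1) with limma the latter difference was −1.06 (adjusted p = 0.00939). ZEB2 was 2.54-fold higher in SUM159PT and 2.01-fold higher in HS578T than in MDA-MB-231 on counts, but on TPM the log2 fold change between HS578T and MDA-MB-231 was 0.11 (adjusted p = 0.646). The 2 units are not scaled between samples in the same way: the median log2 difference of all genes between HS578T and MDA-MB-231 moved by −0.54 when TPM were used.

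Across the 12 knockdown comparisons, 4 of the 8 factors were called at least once. SNAI1 was higher with siNRP1#5 in all 3 lines and lower with siNRP1#3 in MDA-MB-231, SNAI2 was higher with shNRP1#3 in MDA-MB-231, and in HS578T TWIST1 was lower with both siRNAs and TWIST2 with siNRP1#5. In total, 8 of 84 tests of a factor in a knockdown comparison passed (9.52%), 4 higher and 4 lower, a share near the 11.3% over all genes. Tests number 84 and not 96, because TWIST1, TWIST2 and FOXC2 did not pass the filter on low counts in MDA-MB-231.

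**Figure D2:**
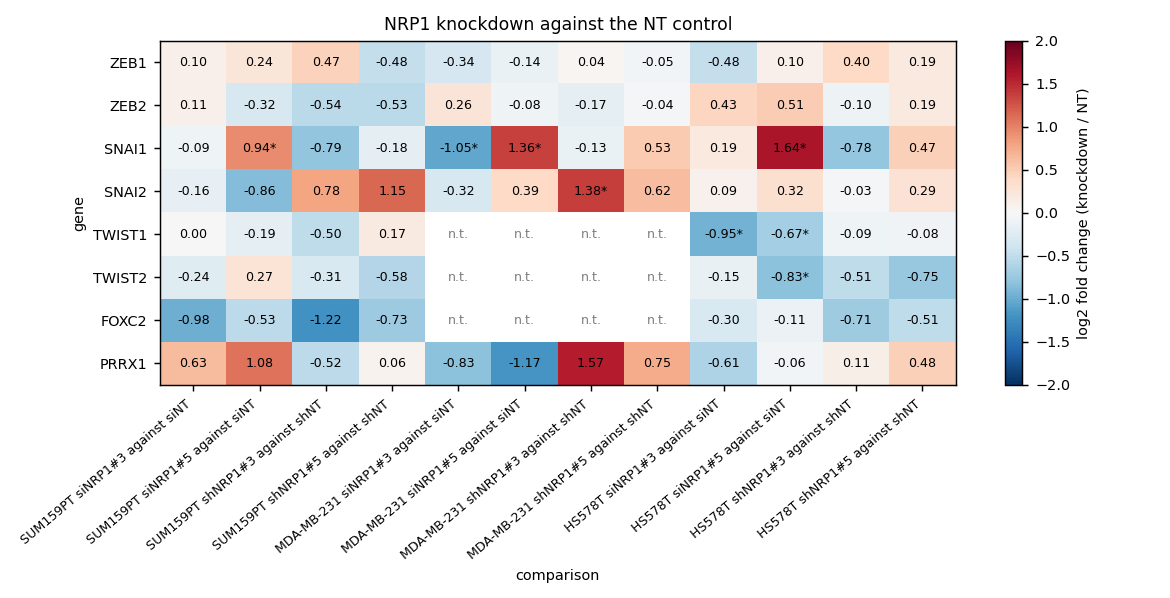
Log2 fold change of each factor (y axis) in the 12 knockdown comparisons against the NT control (x axis), shown by colour and number, with an asterisk where the adjusted p was at or below 0.05 and n.t. where the gene was not tested. The row of SNAI1 holds 4 of the 8 asterisks, and the largest positive value that passed is 1.64 for SNAI1 in HS578T siNRP1#5.

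SNAI1 encodes Snail, a direct repressor of E-cadherin. With siNRP1#5 in SUM159PT its levels were 65.9 and 60.1 CPM (scaled between samples by the TMM method), against 29.1, 41.7 and 28.1 in siNT. Both knockdown samples lay above all controls. The log2 fold change was 0.94 ± 0.301 (SE, 95% CI 0.31 to 1.58, adjusted p = 0.0391, 1.92-fold), where 1 of 8 factors and 17.9% of all genes passed. The call was lost on TPM with limma (0.66, adjusted p = 0.131) and when the 2 groups were fitted alone (0.93, adjusted p = 0.183). It was also lost without siNRP1#5 replicate 2 or 3 or siNT replicate 1 or 3, with adjusted p up to 0.14.

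In MDA-MB-231 the same siRNA gave SNAI1 levels of 15.4, 16.3 and 26.7 CPM, against 6.47, 7.11 and 9.40 in siNT. The groups did not overlap, and the log2 fold change was 1.36 ± 0.234 (SE, 95% CI 0.87 to 1.85, adjusted p = 0.000226, 2.57-fold). SNAI1 was 1 of 5 factors tested that passed, with 29.4% of all genes. With siNRP1#3 the levels were 3.95, 3.44 and 3.55 CPM, all below the siNT samples, a log2 fold change of −1.05 ± 0.241 (SE, 95% CI −1.55 to −0.54, adjusted p = 0.00356, 2.07-fold lower), with 1 of 5 factors and 25.7% of genes passing. Both calls held in 7 of 7 alternatives and in 6 of 6 fits without 1 sample.

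In HS578T, SNAI1 was at 28.5, 17.1 and 26.1 CPM with siNRP1#5, against 7.00, 7.56 and 8.45 in siNT. The groups did not overlap. The log2 fold change was 1.64 ± 0.432 (SE, 95% CI 0.73 to 2.55, adjusted p = 0.0152, 3.11-fold), where 3 of 8 factors and 18.7% of all genes passed. These are the libraries with raised MDA-MB-231 marker levels. After subtraction of the estimated contribution of the other lines, SNAI1 was at 26.5, 13.5 and 24.8 CPM against 6.89, 7.47 and 8.27 in siNT. These CPM keep the scaling from before subtraction, whereas the fit after subtraction rescales the reads that are left. The call held in 7 of 7 alternatives, the subtraction among them, with adjusted p of at most 0.0158. Without siNT replicate 2 the adjusted p was 0.0566.

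The rise of SNAI1 with siNRP1#5 did not differ detectably between the lines. The 3 log2 fold changes spanned 0.70, and a test that they were equal gave an adjusted p of 0.576. The 2 siRNAs differed in each line: SNAI1 was higher with siNRP1#5 than with siNRP1#3 by log2 fold changes of 1.04 in SUM159PT (adjusted p = 0.0168), 2.41 in MDA-MB-231 (adjusted p = 4.02e-07) and 1.44 in HS578T (adjusted p = 0.0291). In fits without 1 sample these calls held in 2 of 5, 6 of 6 and 2 of 6, with adjusted p up to 0.118 in HS578T, and the SUM159PT call was also lost on TPM and with the groups fitted alone (adjusted p up to 0.0907).

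**Figure D3:**
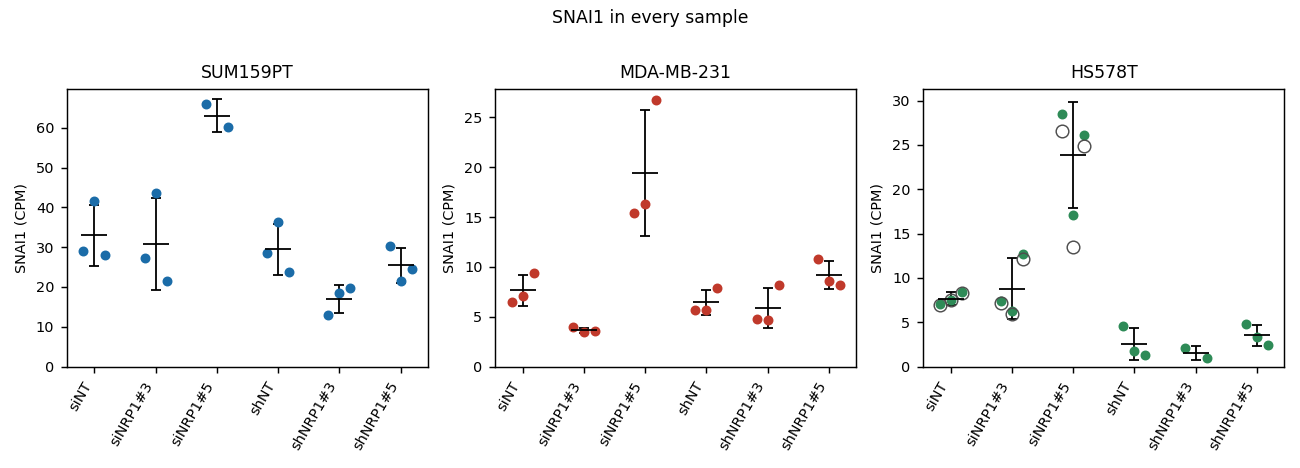
SNAI1 in CPM (y axis, from 0, a separate scale per line) for each sample of the 6 treatment groups, with filled points for samples, a bar for the group mean and error bars of 1 SD, and open circles for HS578T siRNA samples after subtraction of the estimated contribution of the other 2 lines. The siNRP1#5 samples lie above all siNT samples in each line, from 60.1 to 65.9 CPM in SUM159PT, 15.4 to 26.7 in MDA-MB-231 and 17.1 to 28.5 in HS578T, while shNRP1#5 samples overlap or nearly overlap with shNT.

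The shRNA with the same sequence as siNRP1#5 did not give a called change of SNAI1. With shNRP1#5, SNAI1 was at 30.2, 21.5 and 24.6 CPM in SUM159PT (shNT 28.4, 36.4 and 23.7), 10.8, 8.59 and 8.22 in MDA-MB-231 (shNT 5.71, 5.65 and 7.93) and 4.81, 3.29 and 2.47 in HS578T (shNT 4.57, 1.76 and 1.25). The groups overlapped in SUM159PT and HS578T and not in MDA-MB-231. The log2 fold changes were −0.18, 0.53 and 0.47 (adjusted p = 0.115 in MDA-MB-231). The difference between the siRNA and the shRNA change, tested directly, was 1.13 in SUM159PT (95% CI 0.27 to 1.99, adjusted p = 0.131), 0.83 in MDA-MB-231 (95% CI 0.15 to 1.52, adjusted p = 0.0714) and 1.17 in HS578T (95% CI −0.11 to 2.44, adjusted p = 0.444). In MDA-MB-231 it passed with DESeq2 (adjusted p = 0.0451). For NRP1 itself the siRNA change with #5 minus the shRNA change was −2.01 (SUM159PT), −3.83 (MDA-MB-231) and −0.57 (HS578T, unadjusted p = 0.119), and delivery, selection and harvest time differ between the siRNA and shRNA arms, so these cannot be told apart. With shNRP1#3 in SUM159PT, SNAI1 was at 12.9, 18.4 and 19.7 CPM, below all shNT samples, at a log2 fold change of −0.79 that did not pass (unadjusted p = 0.011, adjusted p = 0.211).

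SNAI2 encodes Slug, a close relative of Snail. In MDA-MB-231 it was at 30.6, 29.2 and 33.1 CPM with shNRP1#3, against 14.2, 10.3 and 11.4 in shNT. The groups did not overlap, with a log2 fold change of 1.38 ± 0.266 (SE, 95% CI 0.82 to 1.93, adjusted p = 0.00584, 2.59-fold), and this was 1 of 5 factors tested to pass where 3.65% of all genes did. The call held in 7 of 7 alternatives and in 6 of 6 fits without 1 sample, replicate 3 among them. With shNRP1#5, SNAI2 was at 19.6, 16.9 and 18.4 CPM, again above all shNT samples, at a log2 fold change of 0.62 (95% CI 0.07 to 1.17) that did not pass (adjusted p = 0.103). With siNRP1#5 the levels were 14.7, 14.1 and 5.65 CPM and with siNRP1#3 7.81, 7.44 and 5.79, against 8.94, 11.3 and 6.47 in siNT, and neither passed. Without the low siNRP1#5 replicate 3 the log2 fold change was 0.72 (adjusted p = 0.00713), where it had been 0.39.

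In SUM159PT, SNAI2 with shNRP1#5 was at 17.6, 35.5 and 25.8 CPM and with shNRP1#3 at 30.1, 11.8 and 20.6, against 15.6, 7.73 and 13.1 in shNT. The shNRP1#5 samples lay above all controls, and the shNRP1#3 samples overlapped with them. The log2 fold changes were 1.15 (95% CI 0.37 to 1.92, adjusted p = 0.0798) and 0.78 (95% CI 0.01 to 1.55, adjusted p = 0.388). With DESeq2 the former passed (adjusted p = 0.0285). With siNRP1#5, SNAI2 was at 5.97 and 4.65 CPM, below siNT at 9.21, 7.16 and 12.8, a log2 fold change of −0.86 (adjusted p = 0.165). The siRNA and shRNA changes with sequence #5 differed by −2.01 on the log2 scale (95% CI −3.19 to −0.82, adjusted p = 0.0639), which passed with DESeq2 (0.0113) and with limma on TPM (0.0412). In HS578T, SNAI2 had log2 fold changes between −0.03 and 0.32, none of which passed.

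TWIST1 is a regulator of mesoderm and neural crest, and TWIST2 is its close relative. In HS578T, TWIST1 was at 13.5, 12.0 and 18.9 CPM with siNRP1#3 and at 20.3, 14.4 and 18.8 with siNRP1#5, against 28.9, 26.0 and 30.4 in siNT. All 6 knockdown samples lay below the controls. The log2 fold changes were −0.95 ± 0.225 (SE, adjusted p = 0.0242, 1.93-fold lower) and −0.67 ± 0.224 (SE, adjusted p = 0.0448, 1.60-fold lower). With siNRP1#3, TWIST1 was the 1 factor of 8 that passed, where 4.65% of all genes did.

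Both TWIST1 calls were lost on TPM with limma and when the groups compared were fitted alone, and the siNRP1#5 call was also lost with no filter on low counts and after the subtraction of other lines, with adjusted p up to 0.394. It held in 0 of 6 fits without 1 sample, and the siNRP1#3 call in 1 of 6. The control mattered as well: TWIST1 in HS578T shNT was at 12.3, 11.8 and 12.6 CPM, below all siNT samples, and shNRP1#3 (10.2 and 13.1) and shNRP1#5 (12.3, 12.5 and 10.3) samples were at about that level, with log2 fold changes of −0.09 and −0.08. In SUM159PT the log2 fold changes of TWIST1 were between −0.50 and 0.17, and none passed.

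TWIST2 in HS578T was at 28.2, 31.0 and 34.8 CPM with siNRP1#5, below siNT at 42.0, 53.0 and 71.2. The log2 fold change was −0.83 ± 0.212 (SE, adjusted p = 0.0132, 1.77-fold lower). After subtraction of other lines the log2 fold change was −0.46 (adjusted p = 0.146). The fit rescales the reads that are left, and the part of that in this shift was not tested. Of the 28.2, 31.0 and 34.8 CPM with siNRP1#5, 0.475, 2.26 and 0.357 were assigned to the other lines. The call was also lost without siNT replicate 3, the highest sample (adjusted p = 0.0775). With shNRP1#5 the levels were 35.3, 32.3 and 27.5 CPM, below shNT at 59.5, 52.2 and 47.7, and the log2 fold change of −0.75 did not pass (adjusted p = 0.0971) but did with DESeq2 (0.0111). With shNRP1#3 TWIST2 was at 42.6 and 33.3 CPM, and with siNRP1#3 at 47.3, 44.3 and 58.4, the latter overlapping with siNT. In SUM159PT the log2 fold changes were between −0.58 and 0.27, and none passed.

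ZEB1 and ZEB2 were not called in any of the 12 knockdown comparisons. For ZEB1 the log2 fold changes lay between −0.48 and 0.47, 7 above 0 and 5 below, 0 had an unadjusted p under 0.05, and edgeR, DESeq2 and limma each called 0. The samples of a group differed widely: in HS578T siNT, ZEB1 was at 58.7, 32.7 and 13.5 CPM, and in SUM159PT siNT at 26.2, 6.90 and 12.4. With that spread the 95% intervals reached as far as −1.53 and 1.56, so changes of that size were not excluded by the interval there. MDA-MB-231 was less variable with shRNA, where ZEB1 was at 31.4, 31.6 and 43.0 CPM in shNT, 39.1, 32.7 and 36.5 with shNRP1#3 and 29.9, 37.6 and 34.4 with shNRP1#5, and the intervals lay between −0.54 and 0.53.

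For ZEB2 the log2 fold changes lay between −0.54 and 0.51. Of the 12 tests, 2 had an unadjusted p under 0.05, both in SUM159PT (shNRP1#3 −0.54, adjusted p = 0.346, and shNRP1#5 −0.53, adjusted p = 0.228), and DESeq2 and limma called 0. In MDA-MB-231 the change with siNRP1#5 was −0.08, with a 95% interval from −0.40 to 0.23.

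FOXC2, a factor of mesenchymal and lymphatic development, was called in 0 of 8 knockdown comparisons by edgeR, DESeq2 and limma, with 2 at an unadjusted p under 0.05. In SUM159PT it was at 5.71, 1.84 and 4.52 CPM with shNRP1#3 (shNT 8.62, 7.23 and 12.4), and at 5.27, 5.07 and 4.92 with siNRP1#3 (siNT 8.46, 14.2 and 7.46). Neither pair of groups overlapped. All 8 log2 fold changes were below 0, from −1.22 (SUM159PT shNRP1#3, adjusted p = 0.18, and 0.027 with no filter on low counts) to −0.11 (HS578T siNRP1#5). Each comparison shares its control with another, so these are 4 sets of controls and not 8. In HS578T siNRP1#5 the value turned to 0.26 after subtraction of the other lines, and it was also above 0 in 2 of the fits without 1 sample.

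PRRX1, a homeobox factor of limb and craniofacial mesenchyme, was called in 0 of 12 knockdown comparisons by edgeR and limma and in 1 by DESeq2, with 3 at an unadjusted p under 0.05. In SUM159PT siNRP1#5 it was at 3.51 and 8.02 CPM against 3.34, 2.04 and 2.87 in siNT, both above the controls, at a log2 fold change of 1.08 (95% CI 0.26 to 1.90, adjusted p = 0.063, DESeq2 0.0341). In MDA-MB-231 shNRP1#3 the samples were at 0.874, 0.761 and 6.19 CPM against 0.913, 0.816 and 0.918 in shNT, at a log2 fold change of 1.57 (adjusted p = 0.138). The high sample is replicate 3, which held raised marker levels of the other lines, and the value was −0.11 without it and 0.78 after subtraction.

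The other knockdown comparisons had no factor past the threshold. In SUM159PT none of 8 factors passed with siNRP1#3 (8.66% of all genes did, 1 factor had an unadjusted p under 0.05, and DESeq2 and limma called 0), with shNRP1#3 (1.40%, 4 and 0) or with shNRP1#5 (5.94%, 3, and 1 by DESeq2). In MDA-MB-231 shNRP1#5, none of 5 passed where 20.7% of genes did, with 2 at an unadjusted p under 0.05 and 0 by DESeq2. In HS578T none of 8 passed with shNRP1#3 or shNRP1#5, where 0.0356% and 0.946% of all genes passed, with 1 factor each at an unadjusted p under 0.05, and DESeq2 called 0 and 1.

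The non-targeting controls themselves differed. Between shNT and siNT, 5 of 21 tests of a factor passed (23.8%, against 17.6% over all genes), which was 1 of 8 in SUM159PT (14.4% of all genes), 1 of 5 in MDA-MB-231 (20.6%) and 3 of 8 in HS578T (17.9%). The largest was PRRX1 in SUM159PT, at 18.03, 21.8 and 35.3 CPM in shNT and 3.34, 2.04 and 2.87 in siNT. The groups were far apart, with a log2 fold change of 3.16 ± 0.376 (SE, 95% CI 2.37 to 3.95, adjusted p = 0.00101, 8.94-fold). The knockdown samples were at 11.7 to 30.6 CPM with shRNA and 3.51 to 8.02 CPM with siRNA, so every siRNA sample lay below every shRNA sample, and the siRNA knockdown samples all lay above siNT (log2 fold changes 0.63 and 1.08, neither of which passed).

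In HS578T, FOXC2 was at 56.4, 67.0 and 58.8 CPM in shNT and 24.8, 22.7 and 38.8 in siNT, 2.14-fold higher (log2 fold change 1.10, adjusted p = 0.033). TWIST1 was 2.29-fold lower in shNT (−1.20 ± 0.226, SE, adjusted p = 0.00275). SNAI1 was at 4.57, 1.76 and 1.25 CPM in shNT and 7.00, 7.56 and 8.45 in siNT, 3.00-fold lower (−1.59, adjusted p = 0.0205). In MDA-MB-231, ZEB2 was at 9.92, 9.15 and 8.33 CPM in shNT and 6.28, 6.58 and 6.78 in siNT, 1.37-fold higher (0.45, adjusted p = 0.0384). None of these 4 pairs of groups overlapped. The calls for FOXC2, SNAI1 and ZEB2 held in 2, 3 and 0 of 6 fits without 1 sample (adjusted p up to 0.134, 0.0967 and 0.138), and those for TWIST1 and PRRX1 in 6 of 6. The ZEB2 call was also lost with no filter on low counts and on TPM with limma (adjusted p up to 0.12), while the other 4 held in 7 of 7 alternatives. Delivery, selection and time of harvest differ between siNT and shNT and cannot be told apart.

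**Figure D4:**
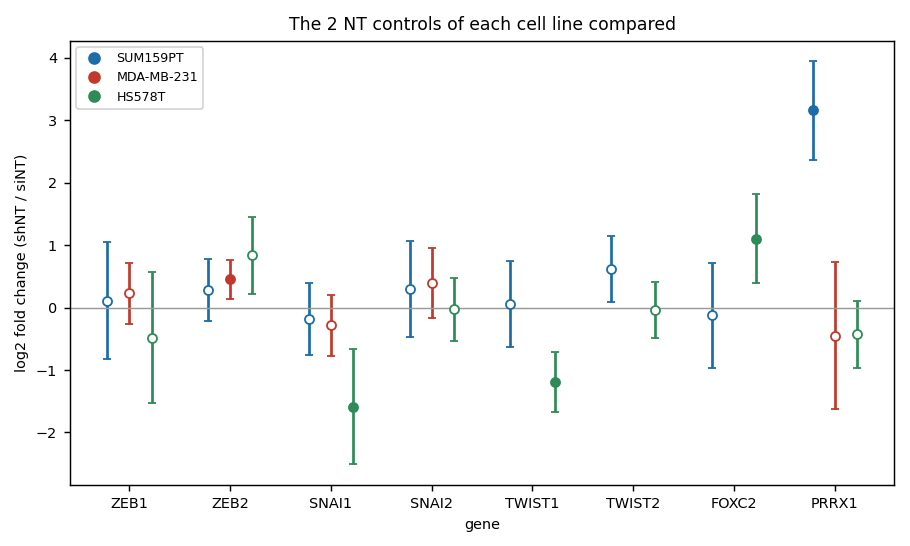
Log2 fold change of shNT against siNT (y axis) for each factor (x axis) and cell line (SUM159PT blue, MDA-MB-231 red, HS578T green), with 95% confidence intervals as bars and filled points where the adjusted p was at or below 0.05. PRRX1 in SUM159PT stands highest at 3.16, and SNAI1 in HS578T lowest at −1.59.

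Between sequence #5 and sequence #3, 5 of 42 tests of a factor passed (11.9%, against 18.3% over all genes), all among siRNAs. They were SNAI1 in each line, SNAI2 in MDA-MB-231 (0.71, adjusted p = 0.0439) and TWIST2 in HS578T (−0.68, adjusted p = 0.0356). For siRNA, 1 of 8 factors passed in SUM159PT (29.7% of all genes), 2 of 5 in MDA-MB-231 (39% of all genes) and 2 of 8 in HS578T (18.1%). For shRNA, none of 8, 5 and 8 factors passed (8.71%, 14.2% and 0.544% of all genes), with 2, 2 and 1 at an unadjusted p under 0.05 and 0, 2 and 0 by DESeq2. SNAI2 was at 14.7, 14.1 and 5.65 CPM with siNRP1#5 and 7.81, 7.44 and 5.79 with siNRP1#3, groups that overlapped. The SNAI2 call was lost on TPM and with the groups fitted alone (adjusted p up to 0.273) and in 5 of 6 fits without 1 sample. The TWIST2 call was lost after subtraction of other lines and with no filter (adjusted p up to 0.232), and in 5 of 6 fits without 1 sample.

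The change with siNRP1#5 was also tested against that with shNRP1#5 for each factor. None of 21 tests passed with edgeR, 5 had an unadjusted p under 0.05, DESeq2 called 2 and limma 1. Of all genes, 2.51% passed in SUM159PT, against 23.7% in MDA-MB-231 and 0.854% in HS578T.

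Whether a reagent changed a factor equally in the 3 lines was tested over all 52 samples, and 3 of 32 tests passed (9.38%, against 6.55% over all genes). In this fit TWIST1, TWIST2 and FOXC2 passed the filter on low counts through SUM159PT and HS578T, not through MDA-MB-231, so the spans of their changes rest on counts at or near 0 there. The shares of all genes were 3.42% for siNRP1#3, where no factor passed (1 had an unadjusted p under 0.05), 18.2% for siNRP1#5, where PRRX1 passed, 0.747% for shNRP1#3, where TWIST1 and TWIST2 passed, and 3.81% for shNRP1#5, where none passed and none had an unadjusted p under 0.05. For PRRX1, the log2 fold changes with siNRP1#5 spanned 2.27 (adjusted p = 0.0474), and the fits per line gave 1.08 in SUM159PT and −1.17 in MDA-MB-231. The call was lost after subtraction of the other lines, with the replicate number as a block and in each of 3 fits without 1 replicate number.

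The TWIST1 and TWIST2 results (adjusted p = 0.0317 and 0.00514) were lost without 1 library. In MDA-MB-231 shNRP1#3, TWIST1 was at 0, 0.0298 and 0.563 CPM and TWIST2 at 0, 0.164 and 1.46 CPM, while shNT samples held at most 0.0163 CPM of TWIST2 and 0 of TWIST1. Replicate 3 was the high sample for both, for FOXC2 (0.598 CPM) and for PRRX1 (6.19 CPM), all of them high in HS578T controls, and it is the sample with the highest HS578T marker share of that line. Without it neither result passed, and 1 of the 32 tests passed. Both were also lost after subtraction of the other lines, on TPM and with only the groups compared.

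**Figure D5:**
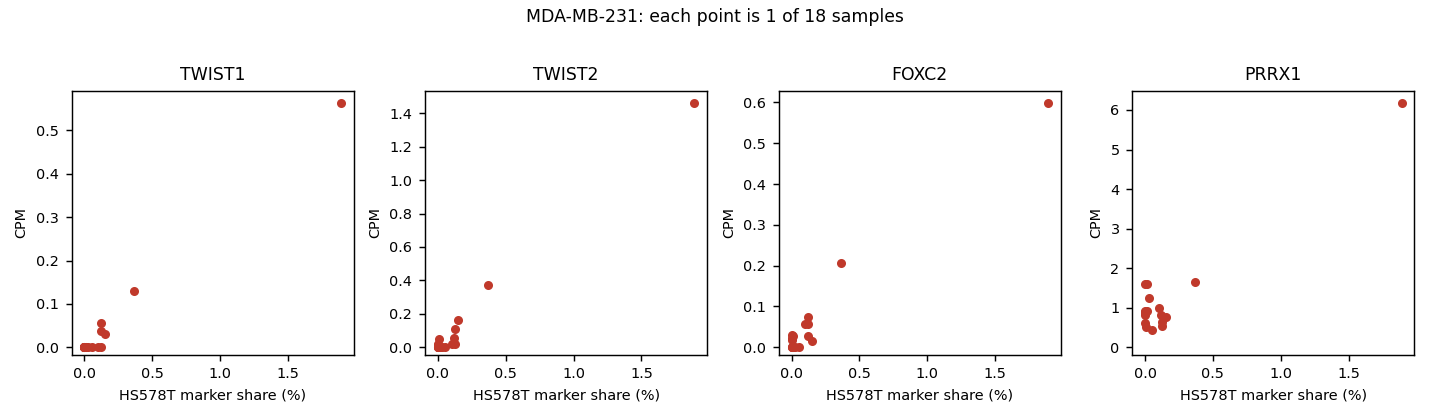
Levels in CPM (y axis, from 0) of TWIST1, TWIST2, FOXC2 and PRRX1 in the 18 MDA-MB-231 samples against the HS578T marker share of the sample in percent (x axis). The sample at the upper right of each panel is replicate 3 of shNRP1#3, at a share of 1.89%, and siNT replicate 3 follows at 0.368%.

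Related genes were described by list over the 12 knockdown comparisons. Of these, HS578T siNRP1#5 and, to a lesser extent, siNRP1#3 rest on the libraries with raised MDA-MB-231 marker levels. MDA-MB-231 shNRP1#3 includes replicate 3, with raised HS578T and SUM159PT marker levels. Values of named genes or counts of calls after subtraction of the other lines are given for these. Of the other EMT-linked transcription factors, 11 of 12 were tested in at least 1 line and 10 passed at least once, 2 times higher and 17 times lower in 108 tests (17.6% of tests, against 11.3% over all genes). FOXQ1, a forkhead factor linked to invasion, was lower in 6 comparisons, from −2.41 on the log2 scale in HS578T siNRP1#5 to −0.51 in MDA-MB-231 shNRP1#5. After subtraction the HS578T value was −4.08 (adjusted p = 0.0112). In SUM159PT it was lower with siNRP1#3 (−0.93), siNRP1#5 (−1.38) and shNRP1#5 (−0.98).

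Antagonists of the factors passed 7 times higher and 8 times lower in 72 tests (20.8%), with 7 of 12 tested. In MDA-MB-231 shNRP1#3, 1 of 5 was called higher, where 3.65% of all genes passed, and 1 of 5 was after subtraction. KLF4, a zinc finger factor of epithelial cells, was lower in SUM159PT with siNRP1#3 (−2.16), siNRP1#5 (−1.44) and shNRP1#5 (−1.61) and in MDA-MB-231 with siNRP1#3 (−0.47), and higher in MDA-MB-231 shNRP1#3 (0.57) and HS578T siNRP1#5 (0.82). ESRP2, an epithelial splicing regulator, and ELF3, an epithelial ETS factor, were lower in MDA-MB-231 with siNRP1#3 (−0.55 and −1.20) and higher in HS578T with siNRP1#5 (3.80 and 3.24). ESRP2 was also lower in MDA-MB-231 siNRP1#5 (−0.85) and higher in HS578T siNRP1#3 (1.91), and ELF3 was lower in MDA-MB-231 shNRP1#5 (−2.87). After subtraction in HS578T siNRP1#5, KLF4 was at 0.92 (adjusted p = 0.00813), ELF3 at 2.50 without passing (adjusted p = 0.321), and ESRP2 no longer reached the filter on low counts, so its HS578T calls have no value after subtraction.

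Epithelial genes that the factors repress passed 16 times higher and 18 times lower in 132 tests (25.8%), with 12 of 14 tested. In HS578T siNRP1#5, 9 of 11 were higher where 18.7% of all genes passed (median log2 fold change 2.93, against 0.0301 over all genes), among them CLDN4 (2.93), ST14 (3.17) and OCLN (1.56). These values came from the libraries with 13.4% to 21.1% of MDA-MB-231 marker levels, a line with a CLDN4 median of 149 TPM. After subtraction 9 of these genes were tested, with a median log2 fold change of 1.42, and 0 were called higher and 1 lower. CLDN4 was at 1.42 (adjusted p = 0.516). OCLN turned to −7.37 (adjusted p = 0.00107), with counts cut at 0 where the estimate exceeded them. The list genes were not left out of the markers, and the subtraction lowers any gene high in MDA-MB-231 and low in HS578T, whatever raised it. It therefore cannot tell whether these genes changed with the siRNA. ST14 did not reach the filter. ST14 was also called higher in HS578T siNRP1#3 (2.53, adjusted p = 0.0488), a call that likewise has no value after subtraction. In MDA-MB-231 shNRP1#5, 8 of 12 were lower where 20.7% of all genes passed (median −0.96, against 0.019 over all genes), among them CLDN4 (95% CI −1.37 to −0.63), ST14 (−1.31) and OCLN (−0.73). With siNRP1#3 and siNRP1#5 in MDA-MB-231, ST14 was lower (−0.71 and −1.17) and so was OCLN (−0.48 and −0.88). CDH1, which encodes E-cadherin, was lower in MDA-MB-231 with siNRP1#3 (−3.83, adjusted p = 2.09e-05) and shNRP1#5 (−1.89, adjusted p = 0.00337) and in SUM159PT siNRP1#3 (−3.27, adjusted p = 0.0156, in a line where no sample exceeded 0.31 TPM), and higher in MDA-MB-231 siNRP1#5 (2.88, adjusted p = 4.9e-06), where SNAI1 was higher as well. CLDN4 was higher with siNRP1#5 (2.52) and shNRP1#5 (4.06) in SUM159PT, and OCLN with shNRP1#5 (1.54). In SUM159PT shNRP1#5, replicates 1 and 2 held 0.55% and 1.04% of MDA-MB-231 marker levels. After subtraction, 2 epithelial genes were called higher there, where 3 had been.

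Mesenchymal genes passed 19 times higher and 23 times lower in 168 tests (25.0%), with 14 of 14 tested. In MDA-MB-231 shNRP1#3, 3 of 14 were higher and 2 lower, where 3.65% of all genes passed. After subtraction 12 were tested there, with 1 higher and 2 lower. TAGLN, an actin-binding protein of smooth muscle, was higher in 6 comparisons, by 4.90 and 4.31 on the log2 scale in SUM159PT siNRP1#3 and siNRP1#5, by 2.56 and 3.48 in MDA-MB-231 and by 3.85 in HS578T siNRP1#3 (3.92 after subtraction, adjusted p = 0.00512). It was also higher by 0.67 in MDA-MB-231 shNRP1#5. FSTL1, a secreted glycoprotein, was lower in 7, from −1.74 to −0.36, of which the HS578T siNRP1#3 call (−0.94) was lost after subtraction (adjusted p = 0.0608), and the collagen gene COL5A1 in 4, from −2.31 to −0.89.

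Corepressors and regulators of protein stability passed 9 times higher and 11 times lower in 156 tests (12.8%), with 13 of 13 tested. CTBP2, a corepressor recruited by ZEB1 and ZEB2, was lower with siNRP1#3 in SUM159PT (−1.24) and MDA-MB-231 (−0.76) and higher with siNRP1#5 in SUM159PT (0.90), MDA-MB-231 (0.58) and HS578T (0.63, and 0.82 after subtraction, adjusted p = 0.00413). BTRC, part of the ubiquitin ligase that degrades Snail, was lower with siNRP1#3 in SUM159PT (−1.39) and MDA-MB-231 (−1.27) and higher with siNRP1#5 in MDA-MB-231 (0.64). USP9X, a deubiquitinase, was lower in 3 comparisons, from −0.99 to −0.46, and so was SIN3A, a scaffold of histone deacetylase complexes, from −0.79 to −0.53. Protein levels of the factors were not measured.

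The genomic positions of the 8 genes are those of GENCODE v44 on GRCh38, the build of the deposited values. ZEB1 (ENSG00000148516.23) lies at chr10:31318495-31529814 on the plus strand, ZEB2 (ENSG00000169554.23) at chr2:144364364-144521057 on the minus strand and TWIST2 (ENSG00000233608.5) at chr2:238848032-238910534 on the plus strand. SNAI1 (ENSG00000124216.4) lies at chr20:49982980-49988886 (plus), SNAI2 (ENSG00000019549.13) at chr8:48917598-48921740 (minus) and TWIST1 (ENSG00000122691.13) at chr7:19020991-19117636 (minus). FOXC2 (ENSG00000176692.8) lies at chr16:86566829-86569728 (plus) and PRRX1 (ENSG00000116132.12) at chr1:170662728-170739421 (plus). All are protein-coding, and FOXC2 has 1 exon in its reference transcript, whereas ZEB2 has 10.

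At the transcript level, the deposited isoform percentage gives each transcript's part of its gene's TPM. SNAI1 and FOXC2 have 1 annotated transcript each. In control samples 1 protein-coding transcript made up 94.6% ± 1.65 of SNAI2 in SUM159PT. It was at 94.8% ± 0.973 for MDA-MB-231 and 95% ± 0.826 for HS578T (SD, n = 6 each), and 1 of TWIST2 made up 90.3% ± 2.38 in SUM159PT and 89.0% ± 7.51 in HS578T. TWIST1 was split between a protein-coding transcript (60.2% ± 6.60 in SUM159PT, 72.9% ± 12.2 in HS578T) and a transcript annotated for nonsense-mediated decay (39.6% ± 6.24 and 26.4% ± 12.6). In HS578T the share of the protein-coding TWIST1 transcript was 82.1% ± 3.72 in siNT, 59.5% ± 10.6 with siNRP1#3, 77.6% ± 10.5 with siNRP1#5 and 63.6% ± 9.91 in shNT (SD, n = 3 each), and the siNRP1#3 samples, at 52.1% to 71.7%, lay below the siNT samples, at 78.4% to 85.9%. These shares rest on 33 to 84 counts of the decay transcript per control sample and were not tested. The most abundant of 23 ZEB1 transcripts made up 54.7%, 49.1% and 47.8% in SUM159PT, MDA-MB-231 and HS578T, and that of 50 ZEB2 transcripts 28.3%, 37.6% and 44%, with SDs of 12.6 to 18.1 percentage points.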

How the data were processed

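Polyadenylated RNA of 52 samples was sequenced with a stranded kit. Per the labels and methods, the authors trimmed reads (Trim Galore 0.6.5), aligned them with STAR 2.7.2b to GRCh38 and quantified genes and transcripts with RSEM 1.3.3. The deposited values used here are expected counts (unscaled estimates of reads per gene, rounded here), TPM, and the isoform percent within a gene. The lists and the 8 genes were chosen with earlier results of these data known. All members were named. Of the lists, genes that passed in at least 3 knockdown comparisons were named, up to 4 a list.

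With edgeR 4.0.16 in R 4.3.3 (filterByExpr, TMM, glmQLFit with robust estimation, glmQLFTest), 1 model was fitted per cell line (6 group means) and 1 over all samples (18 group means), with Benjamini-Hochberg adjustment over all genes tested and a threshold of 0.05. Intervals and SE come from these fits. Alternatives were DESeq2 1.42.0, limma 3.58.1 on log2(TPM + 0.1), no filter, RLE scaling, the groups compared alone, a replicate block, samples left out, and subtraction of other lines. For the latter, each sample's median marker share times the control level of the other line was removed from the counts. Scripts were tested on simulated data. Counting error is small at these depths except for genes near 0. Outlier samples left out by the study are not part of this set. Some members of the gene lists are counted but not reported by name here.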

Additional observations from a re-analysis of the deposited data

Results flagged for a closer look

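For 3 gene and reagent pairs, a test of equal change in the 3 lines passed the threshold, and each result was lost in some of the fits below. TWIST1 and TWIST2 passed the filter on low counts through SUM159PT and HS578T, not through MDA-MB-231, where counts were at or near 0. PRRX1 with siNRP1#5 had an adjusted p of 0.0474, with log2 fold changes that spanned 2.27. TWIST1 with shNRP1#3 had an adjusted p of 0.0317, and TWIST2 with shNRP1#3 an adjusted p of 0.00514. In both TWIST results the MDA-MB-231 values rested on replicate 3 of shNRP1#3, which held 1.89% of HS578T and 2.33% of SUM159PT marker levels, and without that sample neither passed. The PRRX1 result was lost in each of the 3 fits without 1 replicate number, with the replicate number as a block and after subtraction of other lines. No group here had 4 samples or more, so single samples were not tested for lying far from the others.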

How the results depend on the processing

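No called change of the 8 factors turned its direction under any alternative. Of the list genes, OCLN in HS578T siNRP1#5 turned from 1.56 to −7.37 after subtraction of other lines (added after the data were seen). For the knockdown comparisons, the count of 8 calls moved to 18 with no filter on low counts (96 tests), 5 on log2(TPM + 0.1) with limma and 5 with the other lines subtracted by markers chosen on the mean (added after the data were seen), and it was 11 with DESeq2, 8 with RLE scaling, 8 with the groups compared alone and 6 with the subtraction as planned. Leaving out 1 sample gave 5 to 10. For shNT against siNT (5 calls) leaving out 1 sample gave 3 to 6, and for sequence #5 against #3 (5 calls) it gave 3 to 7, with 11 under no filter. For siRNA against shRNA (0 calls), DESeq2 gave 2, no filter 3, limma 1, the groups compared alone 1 and leaving out 1 sample 0 to 2. For the cell lines (20 calls) leaving out a replicate number gave 18 to 20. For equal change in the 3 lines (3 calls), DESeq2 gave 6, no filter 9, limma 1, the groups compared alone 1, both subtractions 1 each, leaving out a replicate number 0 to 1, and leaving out MDA-MB-231 shNRP1#3 replicate 3 (added after the data were seen) 1. The cause of these changes was not tested. With no filter the number of tests was also larger. Of the added knockdown tests, FOXC2 and TWIST2 passed with siNRP1#5 and TWIST1, TWIST2 and FOXC2 with shNRP1#3, all in MDA-MB-231. These are fewer than the rise to 18, so tests made before gained calls as well. Replicate numbers were shared by the groups, but same-numbered samples of an arm did not always deviate together. Their correlations had a median of 0.324 in HS578T, 0.163 in MDA-MB-231 and 0.366 in SUM159PT (lowest −0.454, −0.377 and −0.202), against −0.208, −0.0983 and −0.152 for different numbers. The median was thus higher for the same number in each line, while the labels give a number and state no pairing. Whether same-numbered samples share a batch was not tested. The main fits leave the number out, and fits with the number as a block are given beside them. With the replicate block there were 11 calls for the knockdowns, 5 for shNT against siNT, 7 for #5 against #3, 2 for siRNA against shRNA, 21 for the cell lines and 2 for equal change, where PRRX1 with siNRP1#5 had an adjusted p of 0.0512 under the block. On TPM the median log2 fold change of all genes moved by −0.54 to 0.19, against at most 0.0858 with DESeq2 or RLE scaling. Groups of 2 or 3 samples, passages of 1 transduction in the shRNA arms and levels near 0 in MDA-MB-231 limit what these tests can detect.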

Other observations

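Across the 18 groups, after the mean of each cell line had been taken away, the 5 factors tested in all 3 lines varied with different genes. Among 16331 genes, log2 CPM of ZEB1 was most like that of AFTPH (Pearson's r = 0.843) and PPP2R5C (0.823), ZEB2 like DCBLD2 (0.899), which encodes a membrane protein related in domain structure to neuropilins, and NSD1 (0.897), SNAI1 like CHASERR (0.914) and BOLA2-SMG1P6 (0.894), SNAI2 like GPRASP1 (0.907) and AHSA2P (0.874), and PRRX1 like CUL4A (0.894) and TNPO3 (0.889). The points are group means that share libraries, depth and controls, and each value is among the 2 highest of 16331 genes, so these are descriptions. Between the factors, SNAI2 and PRRX1 had the highest correlation (0.675) and ZEB2 and SNAI1 the lowest (−0.447).

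A further list of 5 names held antisense neighbours of the factors and SNAI1P1, a pseudogene. TWIST2-AS1 was not found by name among the genes. ZEB2-AS1 and SNAI1P1 reached at most 0.18 and 0.04 TPM and were not tested. The 2 genes tested, FOXC2-AS1 and ZEB1-AS1, passed 3 times, each time lower, in 20 tests (15.0%). FOXC2-AS1 passed in 2 comparisons, with a log2 fold change of up to 2.95 in size, and ZEB1-AS1 in 1, at 1.05 in size. In HS578T siNRP1#5, the FOXC2-AS1 call was lost after subtraction of other lines (−0.94, adjusted p = 0.0716) and ZEB1-AS1 was at −1.16 (adjusted p = 0.0492). The libraries were stranded, so reads of these genes and of their sense partners were counted apart.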
